A study of Mus musculus with 16 samples.

Results

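The genes described here encode the machinery that copies DNA and part of the supply of its building blocks. They were chosen by name, as 47 listed genes in 7 groups (11 for origin licensing, 6 for helicase activation, 6 for the sliding clamp and its loader, 9 for polymerases and primase, 5 for strand binding and maturation, 5 for nucleotide supply, and 5 for copying chromatin and DNA methylation). All 47 were listed among the 54658 gene symbols of the count tables, and 46 reached an average of 1 CPM (counts scaled to the same library size) over the 15 distinct libraries. Fen1, the flap endonuclease of lagging strand synthesis, averaged 0.602 CPM and was not tested. In the annotation, 84.2% of its exon bases are shared with genes on the opposite strand.

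DNA replication starts at origins that are licensed in G1, when ORC, Cdc6 and Cdt1 load the Mcm2-7 helicase as an inactive ring. At the entry into S phase the ring is activated by Cdc45 and the GINS complex, primase and the polymerases copy both strands, and PCNA, loaded by the RFC complex, holds the polymerases on DNA. Many of these genes are transcribed in late G1 and S phase under the control of E2F factors, which makes them common indicators of dividing cells, including neural progenitors in culture.

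The cells were C17.2α, a neural line from mouse cerebellum that expresses the thyroid hormone receptor TRα1, grown in serum stripped of thyroid hormone, and kept for 24 h without added T3 in medium with a strobilurin or with its solvent, DMSO. Strobilurins are fungicides that block complex III of the fungal respiratory chain. Picoxystrobin, pyraclostrobin and trifloxystrobin were each given at 30, 100, 300 and 1000 nM and azoxystrobin at 100 and 1000 nM, with 1 library for each concentration beside 2 DMSO libraries. All cultures share the TRα1 transgene and come from 1 cell line, and no source used here states whether the DMSO libraries came from separate cultures, so that p-values measure the spread between these libraries, which may be technical.

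Since no concentration was replicated, the upper pair of concentrations of a compound (300 and 1000 nM) was compared with the lower pair (30 and 100 nM) or with DMSO, and an SD or SE therefore includes any response to concentration within a pair. Libraries held between 12292390 and 18188099 counts. Azoxystrobin at 100 nM repeated the second DMSO library count for count, so that this azoxystrobin library was counted once, as DMSO, and 15 libraries were used. Picoxystrobin at 1000 nM stood apart from the other picoxystrobin libraries. The correlation across genes of the change from DMSO with the GC content of the transcript was 0.17 in it and -0.53, -0.60 and -0.67 at 30, 100 and 300 nM. It enters the shared estimate of the spread, and counts that rest on it are given with and without it. The progenitor markers Nes and Vim averaged 165 and 2845 CPM, but Pax6 averaged 0.0467 CPM, and Sox10, a gene of the oligodendrocyte lineage, averaged 215 CPM. Rbfox3 (neurons), Aqp4 (astrocytes), and Ptprc and Tyrobp (blood cells) were at 0 in all 15 libraries. Other neuron and astrocyte markers were present. Of the 6 neuron markers, 3 (Tubb3, Map2 and Syn1) averaged 1 CPM or more, and the 6 summed to 155 to 157 CPM with DMSO. Of the 5 astrocyte markers, 1 (S100b) did so, and the 5 summed to 13.6 to 15.4 CPM with DMSO. The summed level of the 9 progenitor markers, 7 of which averaged 1 CPM or more, was 3633 to 3729 CPM with DMSO and 3336 to 3464 CPM with pyraclostrobin at 300 and 1000 nM, and most of it came from Vim. Among the 7, Sox9 fell at the upper pyraclostrobin concentrations, to 0.663-fold of the lower ones (edgeR, Benjamini-Hochberg adjusted p = 0.0297) and 0.530-fold of DMSO (adjusted p = 0.00172), Nes rose 1.33-fold against DMSO (adjusted p = 0.0185), and the other 5 had adjusted p-values above 0.05 in both comparisons. Sox9 was at 34.3 and 29.2 CPM with DMSO and at 25.5, 25.4, 16.95 and 17.1 CPM with pyraclostrobin at 30, 100, 300 and 1000 nM. It was at 17.8, 19.5, 16.3 and 21.7 CPM across the concentrations of picoxystrobin. Pdgfra, a marker of oligodendrocyte precursors, fell to 0.694-fold of DMSO at the upper pyraclostrobin concentrations (edgeR adjusted p = 0.0188). The part of these markers in the results was not tested.

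The promoters were searched for the E2F-type words TTTGGCGC, TTTGCCGC, TTTCGCGC and TTTCCCGC on both strands, in the RefSeq windows of 250 bases before to 50 bases after each gene start (GRCm38.p6), where words may overlap. A window was at hand for 39 of the 46 genes, and 16 of these (41.0%) held a word, against 4.79% of 9544 tested genes with a window and 2.60% of all 27025 genes with one. Among the 12 genes called between the upper and lower concentrations of pyraclostrobin, described below, 4 held a word, and among the 27 others with a window 12 did. The 4 stretches are shown because they belong to genes called with pyraclostrobin. All stretches are printed from 5′ to 3′ on the strand of the gene, with the words or their reverse complements in capitals. They lie at chr1:128359715-128359845 on the - strand, chr11:98907983-98908050 on the + strand, chr8:95633507-95633536 on the + strand and chr17:56304098-56304165 on the + strand.
Mcm6: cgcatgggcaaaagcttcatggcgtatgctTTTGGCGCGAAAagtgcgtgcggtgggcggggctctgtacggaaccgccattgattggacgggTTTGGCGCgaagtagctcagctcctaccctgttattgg
Cdc6: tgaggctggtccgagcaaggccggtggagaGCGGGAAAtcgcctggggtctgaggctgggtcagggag
Gins3: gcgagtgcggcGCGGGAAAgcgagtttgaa
Uhrf1: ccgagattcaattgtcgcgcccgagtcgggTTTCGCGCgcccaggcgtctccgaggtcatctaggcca
Mcm6 held 3 words, which started 110, 106 and 47 bases before the gene start, the first 2 of them overlapping. In Mcm6 the one at 106 bases, GCGCGAAA, is the reverse complement of TTTCGCGC. The GCGGGAAA of Cdc6 and Gins3 is the reverse complement of TTTCCCGC. The word of Cdc6 started 138 bases, that of Gins3 41 bases and that of Uhrf1 185 bases before the start. In the GENCODE annotation the stretch of Gins3 overlaps an exon of the gene, and the other 3 stretches overlap none of theirs. A match of letters is a description and no evidence of binding.

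In DMSO, and per length of the longest transcript, Mcm4 (62.0 CPM per kb) and Mcm6 (55.03 CPM per kb) had the highest levels of the 46 genes, followed by Rpa3 (48.03), Orc6 (40.9) and Rrm2 (38.1 CPM per kb). The 6 subunits of the Mcm2-7 ring ranged from 13.2 CPM per kb (Mcm5) to that of Mcm4. Orc1 had the lowest level, at 2.31 CPM per kb, below Gins2 (3.49), Chaf1a (3.55) and Mcm10 (3.64 CPM per kb). Of the exon bases, 67.3% in Gins2 and 52.5% in Chaf1a are shared with a gene on the opposite strand. The part of this overlap in their levels was not tested. Between the controls, all 46 were higher in the first DMSO library than in the second, by a median of 1.15-fold, where 49.1% of all genes tested were higher.

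Pyraclostrobin at 300 and 1000 nM gave the highest levels. For 44 of the 46 genes (95.7%) both upper libraries lay above both lower ones, against 33.1% of all genes tested, with Rfc1 and Pold2 as the exceptions. For 34 genes they lay above all of the other 13 libraries, against 11.3% of all genes, and for 44 they lay above both DMSO libraries, against 38.5%, with 1 gene (Pold2) below, against 34.5%. The median change from the DMSO mean (log2 scale, prior count of 2) was 0.16 and 0.02 at 30 and 100 nM and 0.66 and 0.76 at 300 and 1000 nM, with -0.10 and 0.10 in the DMSO libraries. From 30 to 100 nM 39 of the 46 genes fell in value, from 100 to 300 nM 45 were higher, and from 300 to 1000 nM 38 were higher, against 52.4%, 52.4% and 50.3% of all genes in the same direction. Other libraries were raised as well. Trifloxystrobin at 100 nM (0.36) and picoxystrobin at 1000 nM (0.48) each had 44 genes above both DMSO libraries, against 36.6% and 42.7% of all genes, while trifloxystrobin at 30 nM (-0.24) had 34 genes below both, against 37.2%. Azoxystrobin at 1000 nM (-0.12) had 27 genes below both DMSO libraries and 5 above both, against 36.8% and 33.8% of all genes. In bulk RNA, more cells in S phase and more RNA of these genes per cell cannot be told apart.

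**Figure D1:**
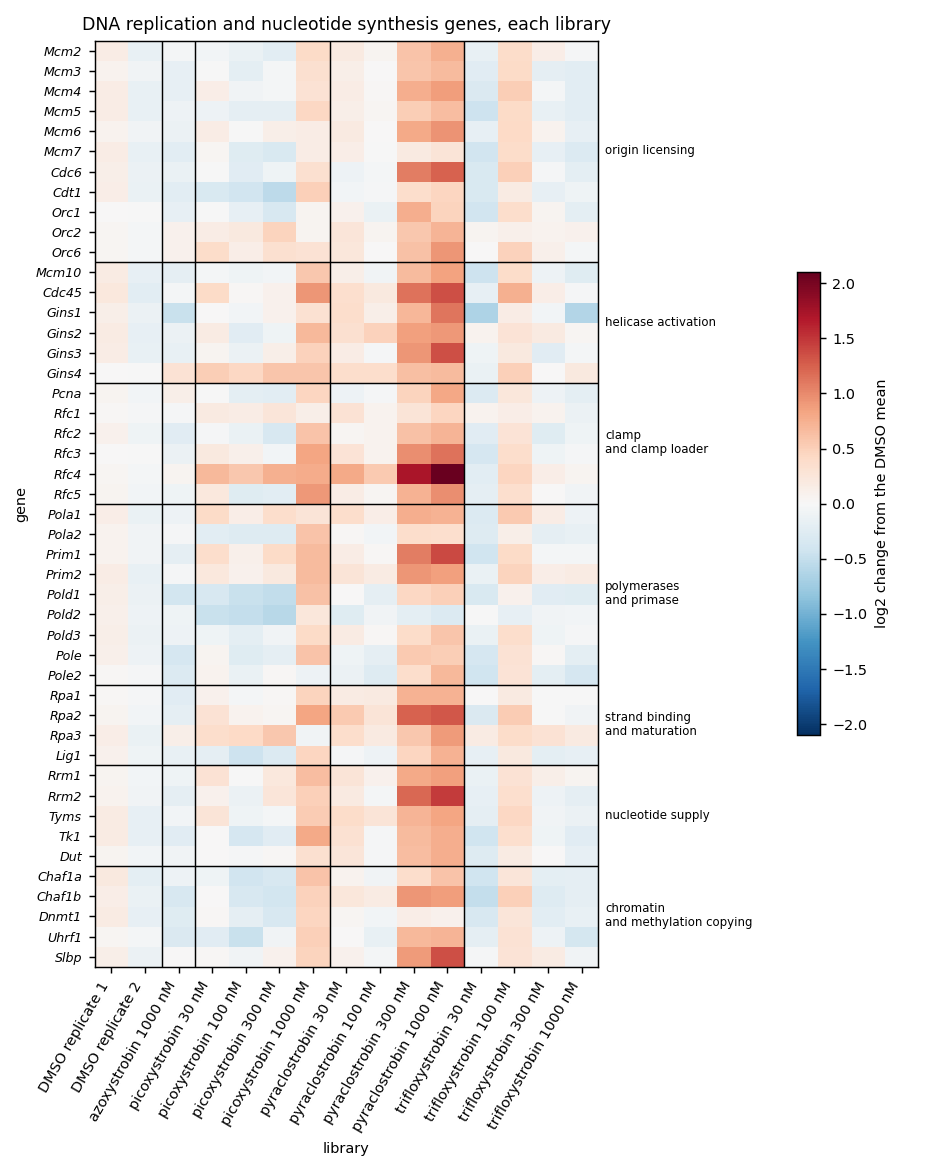
Heat map of the 46 genes (rows, by group) in the 15 libraries (columns), coloured by the log2 change from the mean of both DMSO libraries. The columns of pyraclostrobin at 300 and 1000 nM are red for nearly every gene, with Rfc4 highest at 2.07, and picoxystrobin at 1000 nM and trifloxystrobin at 100 nM are paler red.

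In edgeR's quasi-likelihood test, 12 of the 46 genes (26.1%) rose between the lower and the upper concentrations of pyraclostrobin (Benjamini-Hochberg adjusted p under 0.05 over 14004 genes, here termed called), against 3.47% of all genes, and 0 fell, against 3.35%. The median log2 fold change of the 46 genes was 0.63, and that of all genes was -0.00. At an unadjusted p under 0.05, 31 of the 46 genes were higher, against 11.6% of all genes. Against DMSO, 30 genes (65.2%) rose at the upper concentrations and 0 fell, against 10.6% of all genes called higher and 11.5% called lower, with a median log2 fold change of 0.70 (all genes 0.01). Both counts depend on single libraries. Without picoxystrobin at 1000 nM, which is in neither comparison, 35 genes were called higher between the upper and lower concentrations, against 11.1% of all genes in the same fit, and 42 higher and 1 (Pold2) lower against DMSO, against 20.2% and 20.1%. Without pyraclostrobin at 30, 100, 300 or 1000 nM, the count between upper and lower concentrations became 1, 0, 7 and 0 (all genes called higher 0.0857%, 0.1%, 1.65% and 0.0785%), with the lone library of a pair assumed to vary like the other groups. Against DMSO the count was 14 without the first DMSO library, 7 without the second, 18 without pyraclostrobin at 300 nM and 6 without it at 1000 nM, where the shares of all genes called higher were 2.97%, 3.45%, 5.75% and 2.11%. The counts were 19 between upper and lower concentrations and 35 against DMSO with an offset for GC content and transcript length (5.77% and 13.1% of all genes called higher).

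**Figure D2:**
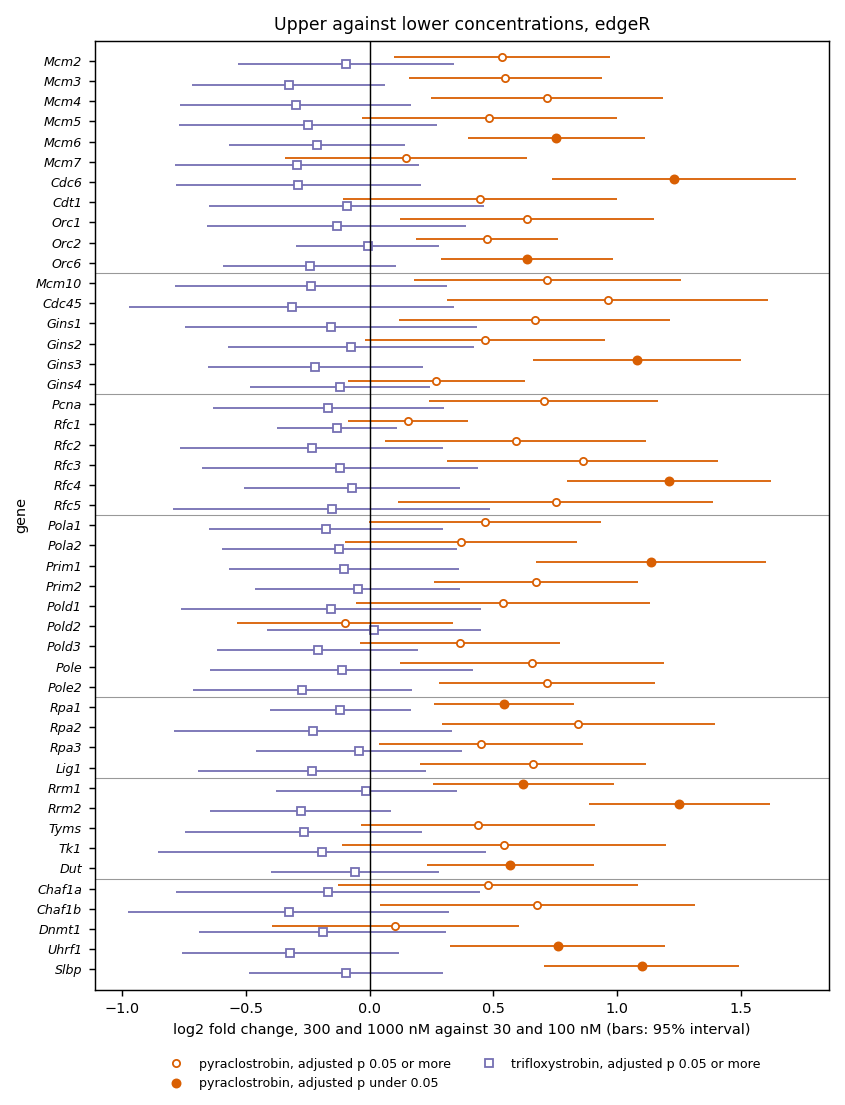
Log2 fold change of each of the 46 genes between 300 and 1000 nM and 30 and 100 nM (horizontal axis), with 95% intervals as bars, for pyraclostrobin (circles, filled where called) and trifloxystrobin (squares). The 12 filled circles lie between 0.54 and 1.25, 45 of the 46 circles are above 0, and 45 of the 46 squares are below 0, all of them with intervals that include 0.

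Among the 11 origin licensing genes, 3 rose between the lower and upper concentrations of pyraclostrobin (Cdc6, Mcm6 and Orc6) and 7 rose against DMSO (Mcm2, Mcm3, Mcm4, Mcm6, Cdc6, Orc2 and Orc6). Cdc6, which loads the helicase ring onto origins, was at 27.9 and 23.6 CPM with DMSO and at 23.7, 24.8, 54.2 and 60.8 CPM with pyraclostrobin at 30, 100, 300 and 1000 nM. It was at 23.3 CPM with azoxystrobin at 1000 nM, at 25.5, 21.8, 24.0 and 32.6 CPM across the concentrations of picoxystrobin, and at 20.6, 36.5, 25.2 and 22.1 CPM across those of trifloxystrobin. Both upper pyraclostrobin libraries were above all of the others, while trifloxystrobin at 100 nM was the next highest. The increase from lower to upper concentrations was 2.35-fold (log2 1.23 ± 0.23, SE, edgeR adjusted p = 0.0117). Mcm6, the subunit with the highest average count of the group, was at 253 and 226 CPM with DMSO and at 271, 241, 415 and 458 CPM with pyraclostrobin. It was at 219 CPM with azoxystrobin, 267, 238, 262 and 267 CPM with picoxystrobin and 213, 321, 251 and 213 CPM with trifloxystrobin. The 2 upper pyraclostrobin libraries again stood above the others, and the picoxystrobin libraries differed little. Mcm6 rose 1.69-fold (log2 0.76 ± 0.16, adjusted p = 0.0213). The other 5 ring subunits had log2 fold changes from 0.15 (Mcm7) to 0.72 (Mcm4) in the same comparison, none of them called, and Mcm5 and Mcm7 were the ring subunits not called against DMSO. Cdt1, the partner of Cdc6 that is degraded in S phase, had a log2 fold change of 0.45 (95% interval -0.11 to 1.00) and was not called in either comparison, nor was Orc1. Mcm5, Cdt1 and Orc1 were called higher against DMSO in the fit without picoxystrobin at 1000 nM.

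All 6 helicase activation genes rose against DMSO at the upper concentrations of pyraclostrobin, by log2 0.64 (Gins4) to 1.23 (Cdc45), and Gins3 alone was called against the lower concentrations. Cdc45, which binds the ring at activation, was at 25.9 and 18.9 CPM with DMSO and at 28.2, 25.6, 49.02 and 57.1 CPM with pyraclostrobin. It was at 21.5 CPM with azoxystrobin, 29.3, 22.6, 23.5 and 42.2 CPM with picoxystrobin and 19.6, 37.2, 24.4 and 21.7 CPM with trifloxystrobin. Both upper pyraclostrobin libraries were the highest, and picoxystrobin at 1000 nM and trifloxystrobin at 100 nM came next. Cdc45 was 2.34-fold higher than with DMSO (log2 1.23 ± 0.30, edgeR adjusted p = 0.0136), but its 1.95-fold difference from the lower concentrations was not called (adjusted p = 0.0739). Gins3, a subunit of the GINS ring, was 12.0 ± 1.13 CPM (SD, n = 2) at the lower and 25.8 ± 5.37 CPM at the upper concentrations, 2.12-fold higher (log2 1.08 ± 0.19, adjusted p = 0.0103). For Gins2, 67.3% of the exon bases are shared with Gse1 on the opposite strand, and whether the counting used the strand is not given in the sources used here. Gse1 itself had a log2 fold change of -0.56 against DMSO and was not called (adjusted p = 0.0895).

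Rfc4, a subunit of the clamp loader (chr16:23113943-23127737, - strand, GRCm38), had the largest change against DMSO of the 46 genes. It was at 12.0 and 11.2 CPM with DMSO and at 20.2, 17.02, 38.4 and 48.9 CPM with pyraclostrobin at 30, 100, 300 and 1000 nM. It was at 12.0 CPM with azoxystrobin, 18.6, 17.2, 19.6 and 20.0 CPM with picoxystrobin and 9.86, 15.9, 12.8 and 12.0 CPM with trifloxystrobin. All pyraclostrobin and picoxystrobin libraries were above both DMSO libraries, and both upper pyraclostrobin libraries were above all others. The increase was 3.73-fold against DMSO (log2 1.90 ± 0.19, edgeR adjusted p = 3.18e-04) and 2.32-fold against the lower concentrations (log2 1.21 ± 0.19, adjusted p = 0.00671). Rfc4 shares 12.7% of its exon bases with Eif4a2 on the opposite strand, which fell by 0.37 on the log2 scale against DMSO (adjusted p = 0.0435). Rfc1, the large subunit and the gene of this group with the highest average count, was at 84.0 and 80.7 CPM with DMSO and at 102, 86.8, 99.1 and 113 CPM with pyraclostrobin. It was at 80.9 CPM with azoxystrobin, 93.6, 91.7, 98.5 and 89.5 CPM with picoxystrobin and 86.6, 90.7, 87.0 and 75.7 CPM with trifloxystrobin. Its range was narrow, and pyraclostrobin at 30 nM exceeded that at 300 nM. Rfc1 rose 1.27-fold against DMSO (log2 0.35 ± 0.11, adjusted p = 0.0424) and was not called against the lower concentrations (log2 0.16, 95% interval -0.09 to 0.40). Pcna, the clamp itself, and Rfc3 also rose against DMSO, by 1.55-fold and 2.07-fold, whereas Rfc2 (log2 0.64) and Rfc5 (log2 0.85) were not called. Rfc2 and Rfc5 were called higher against DMSO in the fit without picoxystrobin at 1000 nM.

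**Figure D3:**
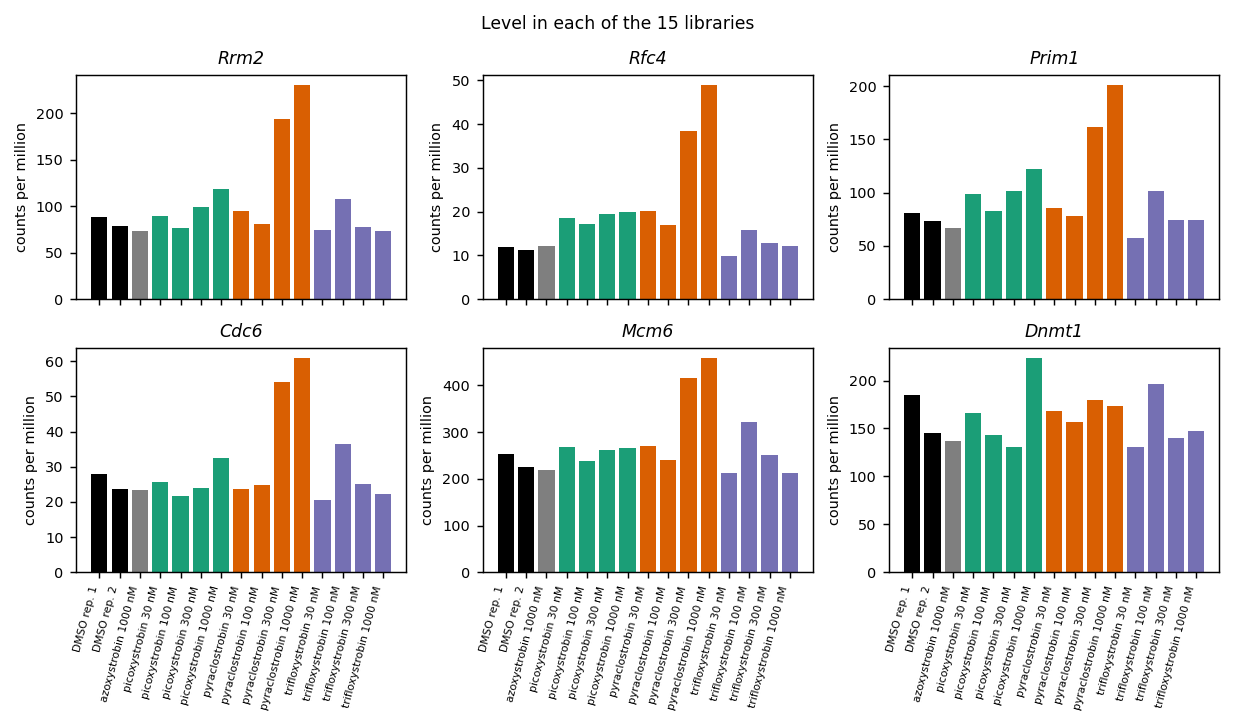
Level in CPM (vertical axis, from 0) of 6 of the genes in each of the 15 libraries, 1 bar a library, coloured by compound. For Rrm2, Rfc4, Prim1, Cdc6 and Mcm6 the bars of pyraclostrobin at 300 and 1000 nM exceed all others, while for Dnmt1 the bar of picoxystrobin at 1000 nM, 223 CPM, is the highest.

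Of the 9 polymerase and primase genes, the primase subunits Prim1 and Prim2 and the catalytic subunit of polymerase alpha, Pola1, rose against DMSO, and Prim1 alone rose against the lower concentrations. Prim1, which synthesizes the RNA primers and had the highest average count here, was at 80.5 and 73.3 CPM with DMSO and at 85.3, 77.9, 162 and 201 CPM with pyraclostrobin. It was at 67.1 CPM with azoxystrobin, 99.0, 82.5, 102 and 122 CPM with picoxystrobin and 57.2, 101, 74.5 and 74.3 CPM with trifloxystrobin. The upper pyraclostrobin libraries were the highest, and all 4 picoxystrobin libraries were above both DMSO libraries. Prim1 rose 2.199-fold from lower to upper concentrations (log2 1.14 ± 0.21, edgeR adjusted p = 0.0122) and 2.33-fold against DMSO (log2 1.22 ± 0.21, adjusted p = 0.00292). The subunits of polymerase delta, which copies the lagging strand, had log2 fold changes against DMSO of 0.45 (Pold1), -0.27 (Pold2) and 0.46 (Pold3), and those of the leading strand polymerase epsilon of 0.51 (Pole) and 0.52 (Pole2). None of these 5, nor Pola2, was called, and the 95% intervals, before any adjustment, reached from -0.70 (Pold2) to 1.04 (Pole). Without picoxystrobin at 1000 nM, however, Pola2, Pold1, Pold3, Pole and Pole2 were called higher against DMSO (edgeR adjusted p = 0.0177 to 0.0283) and Pold2 was called lower (adjusted p = 0.0464). Pold2 was the gene of the 46 with a negative value in both comparisons of the upper concentrations. It was at 46.5 and 40.4 CPM with DMSO and at 36.2, 41.4, 37.5 and 35.6 CPM with pyraclostrobin, so that both upper libraries lay below both DMSO libraries and near the one at 30 nM.

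Of the strand binding and maturation genes, the 3 subunits of RPA, which covers single-stranded DNA, rose against DMSO. Rpa2 was at 35.6 and 32.6 CPM with DMSO and at 49.6, 41.2, 80.8 and 84.0 CPM with pyraclostrobin, and it rose 2.39-fold (log2 1.26 ± 0.26, edgeR adjusted p = 0.00598). It was at 29.9 CPM with azoxystrobin, 42.0, 35.8, 35.2 and 60.4 CPM with picoxystrobin and 27.7, 49.3, 33.8 and 32.5 CPM with trifloxystrobin. All 4 pyraclostrobin libraries were above both DMSO libraries, and picoxystrobin at 1000 nM exceeded pyraclostrobin at 30 nM. Rpa1, the largest subunit, was at 81.4 and 78.4 CPM with DMSO and at 89.6, 91.0, 133 and 133 CPM with pyraclostrobin. It was at 67.5 CPM with azoxystrobin, 85.0, 77.3, 80.8 and 110.1 CPM with picoxystrobin and 80.2, 91.1, 79.6 and 79.2 CPM with trifloxystrobin. The values within each pair of pyraclostrobin libraries were close, and the pairs did not overlap. Rpa1 was called in both comparisons, 1.46-fold higher than at the lower concentrations (log2 0.54 ± 0.13, adjusted p = 0.0289) and 1.64-fold higher than with DMSO (log2 0.72 ± 0.13, adjusted p = 0.00341). Lig1, the ligase that joins Okazaki fragments, had a log2 fold change of 0.59 (95% interval 0.13 to 1.04) against DMSO and was not called (adjusted p = 0.0634). In the fit without picoxystrobin at 1000 nM, Lig1 was called higher against DMSO.

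Rrm2 (chr12:24708241-24714146, + strand, GRCm38), the small subunit of ribonucleotide reductase, which makes deoxyribonucleotides, had the largest change between the lower and upper concentrations of pyraclostrobin. It was at 88.2 and 79.1 CPM with DMSO and at 95.2, 81.1, 194 and 230.1 CPM with pyraclostrobin. It was at 73.4 CPM with azoxystrobin, 89.1, 77.0, 99.1 and 118 CPM with picoxystrobin and 74.4, 107, 77.3 and 73.3 CPM with trifloxystrobin. The upper pyraclostrobin libraries were the highest, and the other 13 libraries spanned 73.3 to 118 CPM. Rrm2 rose 2.38-fold (log2 1.25 ± 0.17, edgeR adjusted p = 0.00372), and 2.51-fold against DMSO (log2 1.33 ± 0.17, adjusted p = 7.38e-04). Rrm1, the large subunit, was at 169 and 154 CPM with DMSO and at 196, 172, 279.6 and 292 CPM with pyraclostrobin. It was at 152 CPM with azoxystrobin, 199, 161, 188 and 254 CPM with picoxystrobin and 146, 198, 175 and 168 CPM with trifloxystrobin. Its upper pyraclostrobin libraries were above all others, with picoxystrobin at 1000 nM next. Rrm1 rose 1.54-fold from the lower concentrations (log2 0.62 ± 0.17, adjusted p = 0.0472) and 1.75-fold against DMSO (adjusted p = 0.00672). Dut, which removes dUTP, was called in both comparisons (1.48-fold and 1.61-fold), and Tyms, which makes thymidylate, was called against DMSO (1.69-fold). The salvage kinase Tk1 was not called (log2 0.69 against DMSO, 95% interval 0.03 to 1.35), and its level with picoxystrobin at 1000 nM, 72.3 CPM, was above that with pyraclostrobin at 1000 nM, 70.7 CPM. Tk1 was called higher against DMSO in the fit without that picoxystrobin library.

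In the last group, Slbp, which binds the stem-loop of replication-dependent histone mRNAs, was at 54.7 and 45.7 CPM with DMSO and at 53.3, 48.7, 92.6 and 128 CPM with pyraclostrobin. It was at 50.5 CPM with azoxystrobin, 51.1, 47.4, 53.03 and 69.6 CPM with picoxystrobin and 49.1, 60.9, 56.3 and 47.4 CPM with trifloxystrobin. The upper pyraclostrobin libraries were the highest, and picoxystrobin at 1000 nM was the third. Slbp rose 2.14-fold (log2 1.10 ± 0.18, edgeR adjusted p = 0.00814) and 2.17-fold against DMSO (adjusted p = 0.00202). Uhrf1, which recruits Dnmt1 to newly copied DNA, was called in both comparisons as well (1.69-fold, adjusted p = 0.0411, and 1.60-fold, adjusted p = 0.0284), and Chaf1b, a subunit of the histone chaperone CAF-1, was called against DMSO (1.84-fold). Dnmt1, the maintenance DNA methyltransferase and the gene of the group with the highest average count, was at 185 and 145 CPM with DMSO and at 168, 157, 179.8 and 174 CPM with pyraclostrobin. It was at 137 CPM with azoxystrobin, 166, 143, 130.3 and 223 CPM with picoxystrobin and 130.2, 196, 140.1 and 148 CPM with trifloxystrobin. The first DMSO library was above all pyraclostrobin libraries, and the groups overlapped. Its log2 fold change was 0.10 from lower to upper concentrations (95% interval -0.39 to 0.60) and 0.08 against DMSO (95% interval -0.41 to 0.58).

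**Figure D4:**
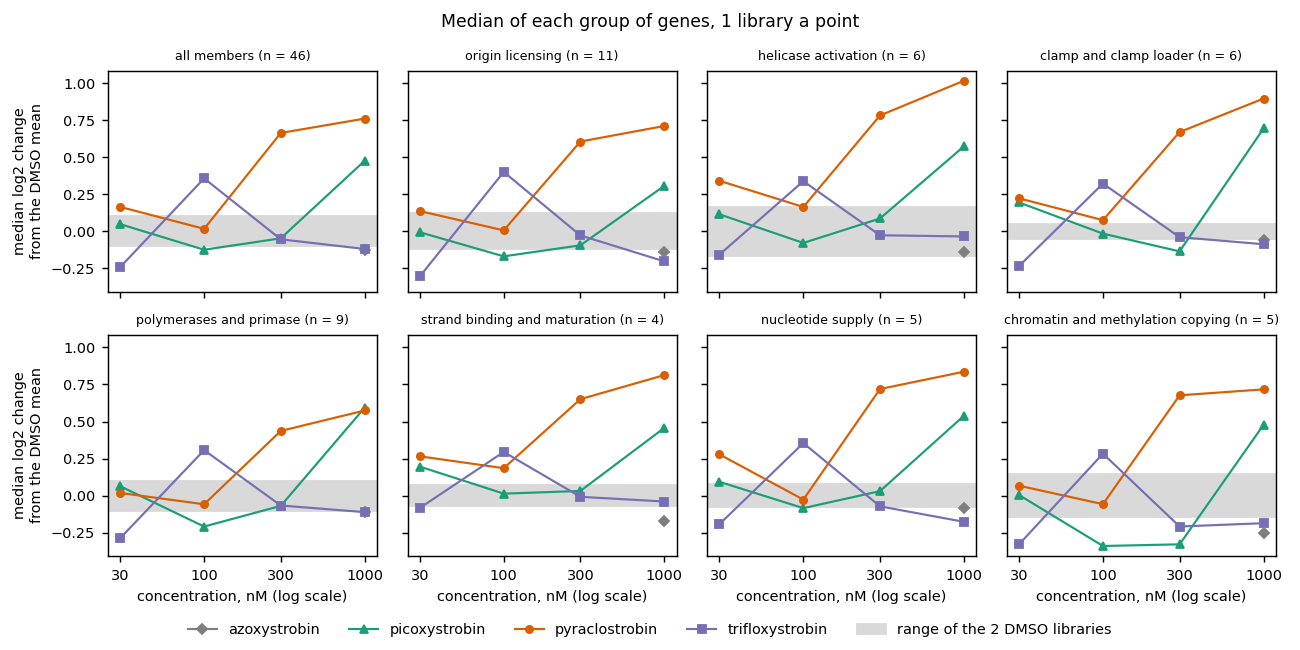
Median log2 change from the DMSO mean (vertical axis) against concentration in nM (log scale) for all 46 genes and for each of the 7 groups, 1 library a point, with the range of both DMSO libraries in grey. In each group pyraclostrobin is at its highest at 300 and 1000 nM, picoxystrobin rises at 1000 nM, and trifloxystrobin peaks at 100 nM. In the polymerase group the medians at 1000 nM are 0.59 for picoxystrobin and 0.57 for pyraclostrobin.

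The other compounds were compared in the same way. Between the upper and lower concentrations of picoxystrobin, 0 of the 46 genes were called by edgeR or by DESeq2, as were 0.0% of all genes, and 1 had an unadjusted p under 0.05 and was higher, against 2.68% of all genes. For 10 genes both upper libraries lay above both lower ones, and for 0 below, against 14.1% and 8.58% of all genes. Their median log2 fold change was 0.27 (all genes 0.02), and without the library at 1000 nM it was -0.02. Without the library at 300 nM, so that 1000 nM stood alone against the lower pair, 21 genes were called higher and 1 (Rpa3) lower, with Pold1 (log2 0.99), Tk1 (0.94) and Rfc5 (0.90) the highest, against 15.5% of all genes called higher and 14.1% called lower in the same fit. At 1000 nM, 38 of the 46 genes were higher with pyraclostrobin than with picoxystrobin, against 48.8% of all genes. The 8 genes for which picoxystrobin was higher (Cdt1, Pola2, Pold1, Pold2, Pole, Tk1, Chaf1a and Dnmt1) had a median transcript GC content of 53.3%, and the other 38 had 47.6%. The part of GC content in this order was not tested. For trifloxystrobin, 0 genes were called by either tool, as were 0.0% of all genes, and 0 had an unadjusted p under 0.05. For 2 genes both upper libraries lay below both lower ones, and for 0 above, against 13.7% and 16.7% of all genes. The median log2 fold change was -0.17 (all genes -0.00), 0.15 without the library at 100 nM and -0.44 without that at 30 nM.

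Rrm2 was the gene called in the direct test of whether the change from lower to upper concentrations differed between pyraclostrobin and trifloxystrobin, against 0.0785% of all genes called higher and 0.1% called lower. The difference was log2 1.53 ± 0.24 (edgeR adjusted p = 0.0314), with 1.25 for pyraclostrobin and -0.28 for trifloxystrobin. The difference was positive for 45 of the 46 genes, the median was 0.77, and 32 were higher at an unadjusted p under 0.05, against 7.42% of all genes. Cdc6, Gins3, Rfc4 and Slbp had adjusted p-values of 0.0742. The call of Rrm2 was lost without any 1 of the pyraclostrobin libraries, or without trifloxystrobin at 100, 300 or 1000 nM, whereas 14 genes were called without trifloxystrobin at 30 nM and 26 without picoxystrobin at 1000 nM, against 1.26% and 4.66% of all genes called higher.

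Picoxystrobin, pyraclostrobin and trifloxystrobin are strobilurins that differ in the group that binds complex III, a methoxyacrylate in picoxystrobin, a methoxycarbamate in pyraclostrobin and an oximino ester in trifloxystrobin. They were compared as 3 pairs at the same 4 concentrations, with the concentration as a block. Between pyraclostrobin and trifloxystrobin 0 of the 46 genes were called by edgeR, as were 0.0% of all genes in the higher and 0.0143% in the lower direction, although 24 had an unadjusted p under 0.05, all higher with pyraclostrobin, against 8.37% of all genes. DESeq2 called 3, and its share of all genes called is not given here. With trifloxystrobin at 100 nM left out, edgeR called 21, against 1.26% of all genes called higher in that fit. The median log2 difference was 0.41 (all genes 0.01). Rfc4 had the largest difference, 1.21 ± 0.25 (95% interval 0.67 to 1.75, adjusted p = 0.153). Between pyraclostrobin and picoxystrobin 0 genes were called by either tool, with the same shares of all genes (0.0% and 0.0143%), 13 were higher at an unadjusted p under 0.05, against 5.68% of all genes, and the median was 0.34, with 0.58 for Rrm2 (95% interval 0.04 to 1.12). Between picoxystrobin and trifloxystrobin 0 genes (0.0% of all genes) were called by either tool, 2 were higher at an unadjusted p under 0.05, against 3.78% of all genes, and the median was 0.09. The interval for Rrm2 in that pair, -0.39 to 0.69, leaves room for a difference in either direction. At single concentrations the order of pyraclostrobin and trifloxystrobin turned, since pyraclostrobin was higher for 45 of the 46 genes at 30 and at 1000 nM but for 3 at 100 nM, against 53.5%, 51.3% and 50.7% of all genes.

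With all concentrations of a compound set against DMSO, Rfc4 was the gene called for pyraclostrobin, against 0.293% of all genes called higher and 1.02% called lower (log2 1.42 ± 0.33, edgeR adjusted p = 0.0491). It was not called without either DMSO library or without pyraclostrobin at 300 or 1000 nM. Of the 46 genes, 22 were higher at an unadjusted p under 0.05, against 11.2% of all genes, and the median was 0.46. For picoxystrobin 0 genes were called by edgeR or DESeq2 (0.00714% of all genes called higher and 0.0214% lower), 2 were higher at an unadjusted p under 0.05, against 7.7% of all genes, and the median was 0.09. Without the library at 1000 nM, Gins4 was called higher (log2 0.51) and Pold2 lower (log2 -0.53), against 9.15% and 10.0% of all genes. For trifloxystrobin and for azoxystrobin, of which 1 library at 1000 nM was left, 0 genes were called by either tool, 0 had an unadjusted p under 0.05, and the medians were -0.00 and -0.13. These comparisons share both DMSO libraries.

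Genes around the same steps were counted from further lists. Of 25 regulators of S phase entry, 6 (24.0%) rose between the lower and upper concentrations of pyraclostrobin and 0 fell, against 3.47% and 3.35% of all genes. Cdkn1a, the inhibitor p21 of cyclin-dependent kinases, was at 44.1 and 37.2 CPM with DMSO and at 36.6, 47.6, 135 and 142 CPM with pyraclostrobin, and it rose 3.26-fold (log2 1.70 ± 0.38, edgeR adjusted p = 0.0228). It was at 33.5 CPM with azoxystrobin, 29.6, 26.7, 30.2 and 102 CPM with picoxystrobin and 41.6, 44.4, 43.0 and 53.1 CPM with trifloxystrobin. The upper pyraclostrobin libraries were the highest and picoxystrobin at 1000 nM the third. The cyclins Ccne2 (2.33-fold) and Ccne1 (1.70-fold), which drive the entry into S phase, the origin-firing kinase Cdc7 (1.87-fold) and Rb1 (1.68-fold), which restrains E2F, also rose. Against DMSO, 11 of the 25 (44.0%) rose and 3 (12.0%) fell, the latter being E2f3, Cdkn1b and Myc, against 10.6% and 11.5% of all genes. Of 31 other fork and origin genes, 6 (19.4%) rose against the lower concentrations, led by Dna2 (2.44-fold), Clspn (2.15-fold), Wdhd1 (2.01-fold), Donson (1.83-fold) and Tipin (1.68-fold), and 15 (48.4%) rose against DMSO, against the same shares of all genes. Their median log2 fold changes were 0.48 and 0.54.

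Of 27 other nucleotide synthesis genes, 2 (7.41%) rose between lower and upper concentrations, against 3.47% of all genes, among them the nucleoside kinase Dck (2.07-fold). The median log2 fold change of the 27 genes was 0.02. Against DMSO 4 (14.8%) rose, against 10.6% of all genes, and 2 (7.41%) fell, against 11.5%, the latter being Impdh1 and Impdh2 of guanine nucleotide synthesis, and the median was 0.04. Of 6 further proliferation genes, 0 were called between lower and upper concentrations by edgeR, against 3.47% of all genes called higher and 3.35% lower. By unadjusted p under 0.05 there was 1. Bub1, a kinase of the mitotic checkpoint, alone was called against DMSO (1.74-fold, edgeR adjusted p = 0.00744), where 10.6% of all genes were called higher. The others had log2 fold changes against DMSO of 0.65 (Cdk1), 0.33 (Ccnb1), 0.13 (Aurka), 0.06 (Mki67) and -0.45 (Plk1). Mki67, a marker of cycling cells, was at 935 and 775 CPM with DMSO and at 881, 761, 842 and 959 CPM with pyraclostrobin, and Plk1, a mitotic kinase, was at 51.7 and 32.3 CPM with DMSO and 41.3, 42.3, 28.1 and 34.0 CPM with pyraclostrobin. The upper pyraclostrobin libraries overlapped with DMSO for Mki67 and, at 300 nM, lay below both DMSO libraries for Plk1. The order of the lists differed between libraries. With picoxystrobin at 1000 nM the median of the 6 proliferation genes was 0.79 and that of the 46 replication genes 0.48, whereas with pyraclostrobin at 300 and 1000 nM they were 0.11 and 0.39 against 0.66 and 0.76. These medians are descriptions of single libraries, and their difference was not tested.

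**Figure D5:**
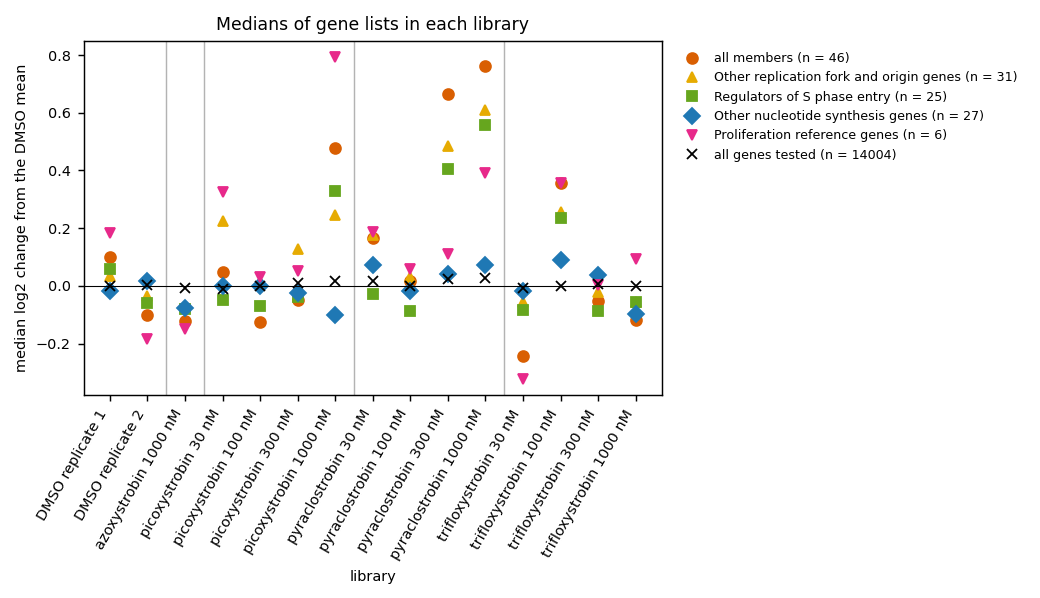
Median log2 change from the DMSO mean (vertical axis) of 5 gene lists and of all genes tested in each of the 15 libraries (horizontal axis), 1 point a list and library. The 46 genes are the highest list at pyraclostrobin 300 and 1000 nM, the proliferation genes are the highest at picoxystrobin 1000 nM, and the other nucleotide synthesis genes stay between -0.10 and 0.09.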

How the data were processed

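RNA of 16 samples, 2 of which held the same counts, was sequenced from SENSE total RNA libraries (Lexogen) on a NextSeq500. The authors aligned the reads with Bowtie2 2.3.2.2 to the mouse genome (mm10, per the submitters' processing notes) and deposited raw counts per gene. The paper names htseq-count for its count tables. Whether counting used the strand and which annotation was used are not given in the sources used here. Overlapping genes may therefore share counts or lose them. The total count per library was 12292390 to 18188099, which limits the precision of low genes.

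Samples were grouped by compound and concentration from the labels. From the deposited counts, genes with an average of 1 CPM or more over the 15 distinct libraries (14004 genes) were fitted with edgeR 4.0.16 (quasi-likelihood test, TMM, R 4.3.3), and p-values were adjusted by the Benjamini-Hochberg method over all of them. All libraries shared 1 estimate of the spread. Compounds with lower and upper concentrations, compounds as a whole, and compounds matched by concentration were fitted in separate models. The study's own comparison had 1 level per compound. Gene positions and lengths came from GENCODE M21 (GRCm38), and promoter windows from RefSeq (GRCm38.p6). A prior count of 2 was added for log2 values of single libraries. Scripts were tested on simulated counts. Alternatives were no filter or a minimum of 10 CPM, RLE scaling, DESeq2 1.42.0, an offset for GC content and transcript length (splines with 4 degrees of freedom), a trend on log concentration, all 16 libraries, the compared libraries alone, and leaving out each library. Leaving out picoxystrobin at 1000 nM, or all picoxystrobin, was added after seeing the data.

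The genes and lists were chosen with earlier results of these data known. Values in every library are given for called genes (at most 5 with the largest change per comparison) and for the gene of each group with the highest average CPM. Pold2, the genes of other lists described library by library, and the promoters shown were picked after their values were seen. Results for some listed genes are not reported here.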

Additional observations from a re-analysis of the deposited data

Results flagged for a closer look

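In 48 gene-by-compound sets, the 4 libraries of a compound were examined for 1 value far from the others. The criterion was a ratio of the gap to the range above Dixon's 95% critical value. For independent replicates, chance alone gives about 1 in 20. The 4 values of a set are 4 concentrations, and the genes tend to move together between libraries, so that this rate need not hold here. In 3 sets a library stood apart. Dut with picoxystrobin was at 55.3 CPM at 1000 nM, above the other 3 libraries (ratio 0.872). Rpa1 with trifloxystrobin was at 91.1 CPM at 100 nM (ratio 0.910), and Rrm2 with trifloxystrobin was at 107 CPM at 100 nM (ratio 0.881). In both of these libraries 44 of the 46 genes lay above both DMSO libraries. The change of Rrm2 from lower to upper concentrations differed between pyraclostrobin and trifloxystrobin by log2 1.53 in the test of the difference itself (edgeR, Benjamini-Hochberg adjusted p = 0.0314).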

How the results depend on the processing

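Of the medians of the genes per comparison, 167 values kept within the spread under the alternatives and 5 moved, and of the values of single called genes 456 kept their call, 150 lost it and 0 reversed. Genes called between upper and lower pyraclostrobin (12) became 35 with no filter on low counts, 19 with the GC and length offset, 22 with DESeq2, 19 with all 16 libraries, 6 for a trend on log concentration, 33 with all picoxystrobin libraries removed, 35 without picoxystrobin at 1000 nM alone, and 0 to 7 without 1 pyraclostrobin library. Against DMSO (30), leaving out 1 DMSO or pyraclostrobin library gave 6 to 26, and leaving out picoxystrobin at 1000 nM gave 43. The difference between pyraclostrobin and trifloxystrobin (1) became 29 with no filter, 5 with the offset, 11 with DESeq2, 5 with all 16 libraries, 22 with picoxystrobin removed, and 0 to 26 without 1 library. For all pyraclostrobin against DMSO (1) the counts were 23 with no filter, 0 with the offset, 3 with DESeq2, 0 with only the libraries compared, 2 with picoxystrobin removed and 0 to 5 without 1 library. At matched concentrations, pyraclostrobin against trifloxystrobin (0) gave 26 with no filter, 3 with DESeq2 and 0 to 21 without 1 library, pyraclostrobin against picoxystrobin gave 12 with no filter, and picoxystrobin against trifloxystrobin gave 0 to 1 without 1 library, the 1 being Pold2. Picoxystrobin against DMSO (0) gave 1 with no filter and 0 to 2 without 1 library, and its upper against lower concentrations gave 0 to 22. The share of all genes called higher was 3.47% in the main fit of upper against lower pyraclostrobin. That share also moved between fits and is not given beside each count above. These counts alone therefore do not set the genes apart from all genes. The cause of the changes in the counts was not tested. Libraries could not be paired by replicate number, because the labels number the replicates of DMSO alone. The block in the matched comparisons was the concentration, not a replicate number. Counts depend on the spread shared by all libraries, and no concentration was replicated.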
